A study of Mus musculus with 6 samples.

Results

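The THO/TREX mRNA export machinery was examined through 10 genes in the cerebral cortex of fetal male mice. They are the THO core genes Thoc1, Thoc2, Thoc3, Thoc5, Thoc6 and Thoc7, the adapters Alyref and Sarnp, the helicase gene Ddx39b and the export receptor gene Nxf1. All 10 were found by symbol among the 45583 rows of the deposited count table, and all 10 were among the 13741 genes with enough counts to be tested. The complex was chosen by the measured difference of 1 gene, Thoc7, between BPA and vehicle. Thoc7 had the smallest unadjusted p-value of all genes tested (2.17e-05 with edgeR's quasi-likelihood test, adjusted p = 0.251), so its values in that comparison are given as a description. The adjusted p was 0.0148 with DESeq2 and 0.39 with limma-voom, on either side of the threshold of 0.1. Because the same difference chose the gene, neither value is a test of it. The question was whether the other 9 genes, its partners, differed in the same way.

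All 6 fetuses came from the Cyp19-EGFP strain, in which a bacterial artificial chromosome carries the aromatase gene Cyp19a1 with an EGFP gene inserted ahead of its start codon. The labels give the genotype of every fetus as WT and SRY +, the tissue as brain cortex and the age as GD15.5 (gestational day). Dams had been injected with bisphenol A (BPA, a plastic monomer that binds estrogen receptors) under the skin, at a dose of 50 µg/kg, or with peanut oil as vehicle, between GD10.5 and GD14.5. Each group held 3 fetuses and each fetus gave 1 library. The dam of each fetus is not named, so the p-values measure the spread between fetuses that may share a litter.

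The THO complex binds nascent transcripts as they are made, capped and spliced. With the helicase DDX39B and adapters such as ALYREF it forms TREX (transcription-export), which loads the receptor NXF1 and its partner NXT1 onto the finished mRNA for passage through the nuclear pore. THOC2 is the scaffold of THO, THOC5 and THOC7 pair through long coiled coils, and the loss of THO function is known to leave RNA-DNA hybrids (R-loops) on chromosomes. Inherited variants of THOC2 and THOC6 in people cause intellectual disability, which ties the complex to brain development.

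Total counts ran from 3444601 in BPA replicate 3 to 7180835 in vehicle replicate 2. Levels are given as CPM, the counts scaled by TMM to libraries of a common size. A count of 0 would allow up to 0.422 CPM in the deepest library and 0.875 CPM in the shallowest, counting error alone. The tissue label was examined with 8 dorsal cortex genes, which include Emx1, Neurod6, Tbr1, Eomes, Pax6 and Bcl11b. All 8 were tested, and their summed level was 3156 to 3637 CPM in vehicle and 3193 to 3526 CPM in BPA. Markers of other tissue did vary. The summed level of 9 genes of the ventral telencephalon was 994 to 1141 CPM in vehicle and 870 to 949 CPM in BPA, with all 9 fitted lower in BPA. Among them Nkx2-1, a regulator of ventral identity, went from 35.9 CPM ± 8.79 (SD, n = 3) to 14.8 CPM ± 5.48 (SD, n = 3). Ttr, the defining gene of choroid plexus, stood at 195 CPM in vehicle replicate 2 and 308 CPM in BPA replicate 2, against 2.21 to 11.9 CPM in the other 4 libraries. Summed levels of the blood, vessel and meninges, and microglia lists overlapped between the groups. In bulk tissue, fewer cells of a type and less RNA per cell cannot be told apart.

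Thoc7 is the smallest of the THO core proteins by coding length, at 612 bases of coding sequence, and is the partner of THOC5. Its level was 22.2, 24.5 and 24.8 CPM in the vehicle libraries and 36.1, 45.5 and 42.0 CPM in the BPA libraries. All 3 BPA libraries lay above all 3 vehicle libraries. The group means were 23.9 CPM ± 1.43 (SD, n = 3) and 41.2 CPM ± 4.74 (SD, n = 3), a fitted fold of 1.73 with a 95% interval from 1.42 to 2.10. These values rest on 126 to 280 counts per library. On the log2 scale the change was 0.79 (SE 0.132), and it lay between 0.70 and 0.88 when each library was left out in turn. Without the 2 libraries in which Ttr was high it was 0.73. The ventral list moved with the groups as well, and its part in the Thoc7 difference was not tested.

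**Figure D1:**
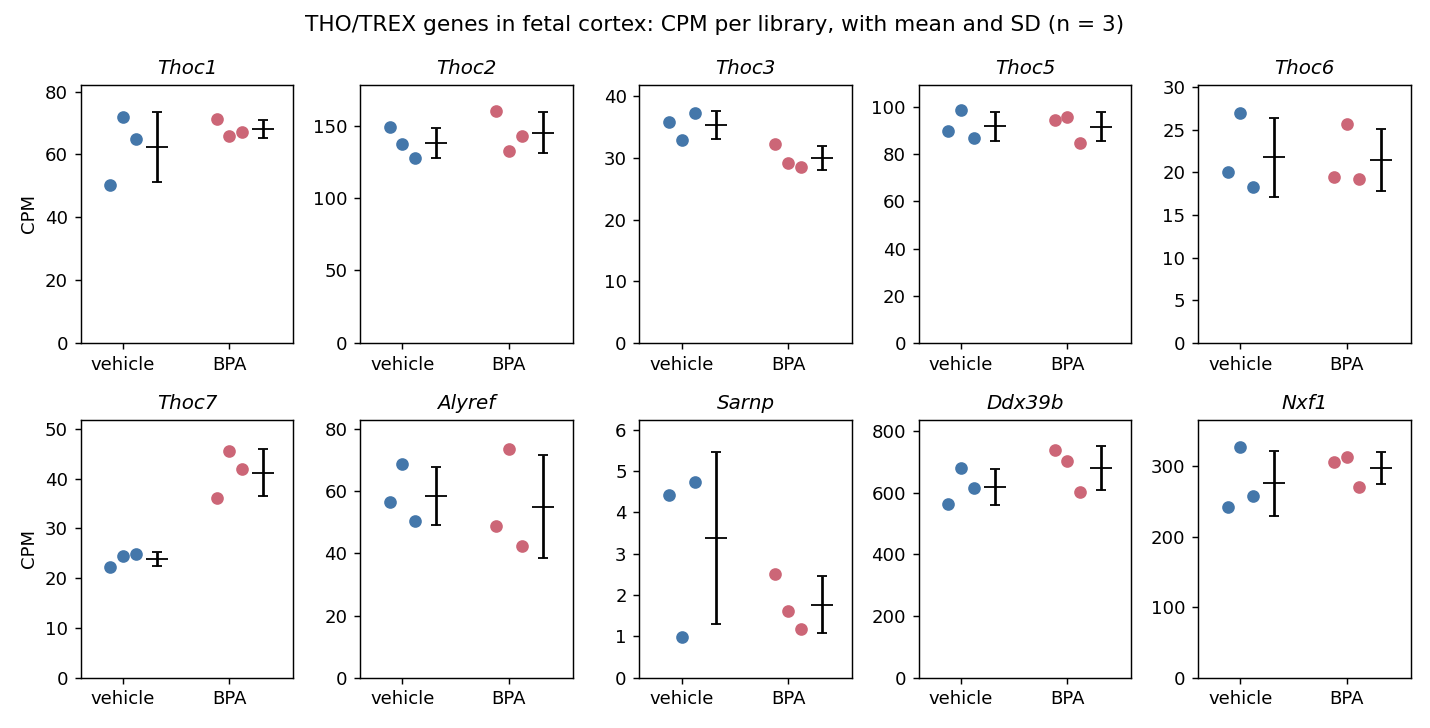
CPM of each of the 10 THO/TREX genes (vertical axes, each from 0) in the 3 vehicle libraries (blue) and the 3 BPA libraries (red), with the mean and SD of each group beside the points. The groups do not overlap for Thoc7, at 22.2 to 24.8 against 36.1 to 45.5 CPM, or for Thoc3, at 32.9 to 37.3 against 28.6 to 32.2 CPM, and they overlap for the other 8 genes.

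None of the remaining THO core genes passed the test, and the intervals of all 5 included no change. Thoc5, which encodes the protein that pairs with THOC7, was at 90.0, 98.7 and 86.8 CPM in vehicle and 94.5, 95.9 and 84.6 CPM in BPA. The ranges of the 2 groups nearly coincided. The log2 fold change was 0.000359 (SE 0.106), and the 95% interval of the fold ran from 0.856 to 1.17.

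Thoc2, the scaffold gene on the X chromosome, was at 149, 137 and 128 CPM in vehicle and 160, 132 and 143 CPM in BPA. The libraries of the groups were interleaved, with a fold of 1.05 (0.901 to 1.23). Thoc1 encodes the subunit first known as a nuclear matrix protein. It was at 50.3, 72.1 and 64.9 CPM in vehicle and 71.5, 65.8 and 67.1 CPM in BPA. The vehicle libraries spread more widely than those of BPA, and the fold was 1.09 (0.902 to 1.32). Of the 50-base words in Thoc1 transcripts, 22.9% also occur on the opposite strand in Usp14, whose 3' end overlaps it on chromosome 18. Usp14 itself had a fitted log2 fold change of -0.10 (SE 0.126). The sources used here do not say whether the counting used strand, so the counts of Thoc1 are uncertain to that extent.

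Thoc3 and Thoc6 encode the WD40-repeat subunits. Thoc3 was at 35.9, 32.9 and 37.3 CPM in vehicle and 32.2, 29.3 and 28.6 CPM in BPA. The BPA range lay wholly under the vehicle range, opposite in direction to Thoc7. The means were 35.4 CPM ± 2.21 (SD, n = 3) and 30.01 CPM ± 1.92 (SD, n = 3), and the log2 fold change was -0.23 (SE 0.124). That difference did not pass edgeR's quasi-likelihood test (unadjusted p = 0.0834, adjusted p = 1). Thoc6 was at 20.0, 27.0 and 18.3 CPM in vehicle and 19.5, 25.7 and 19.3 CPM in BPA, with replicate 2 the highest in both groups. Its fold was 0.986 (0.763 to 1.27). The first exons of Thoc6 overlap those of Hcfc1r1 on the opposite strand, and 8.7% of its 50-base words are shared there.

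Among the genes that act after THO, Ddx39b was the most abundant. It encodes the helicase also known as UAP56, and was at 563, 681 and 615 CPM in vehicle and 739, 702 and 602 CPM in BPA. BPA replicate 3 fell within the vehicle range, and the log2 fold change was 0.14 (SE 0.104). Nxf1, the export receptor, was at 242, 328 and 257 CPM in vehicle and 307, 313 and 271 CPM in BPA, all 3 BPA values inside the vehicle range. Its fold was 1.08 (0.910 to 1.28).

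Alyref, the main adapter between TREX and NXF1, was at 56.5, 68.8 and 50.5 CPM in vehicle and 49.0, 73.8 and 42.3 CPM in BPA. Replicate 2 was again the highest in both groups, and the fold was 0.947 (0.734 to 1.22). Sarnp encodes an adapter that binds DDX39B. It was at 4.41, 0.985 and 4.73 CPM in vehicle and 2.51, 1.63 and 1.17 CPM in BPA, from only 4 to 30 counts per library. Vehicle replicate 2 lay below all BPA libraries, so the fold of 0.571 carried a wide interval, from 0.279 to 1.17. In addition, 36.8% of its 50-base words also occur in the processed pseudogene Gm6563, which had 123 to 301 counts per library. When both rows were summed, a choice made after seeing the data, the log2 fold change was -0.02 (SE 0.134). Most counts of that sum are from Gm6563, which alone was at 0.03 (SE 0.139), so it says little about Sarnp. The counts of Sarnp alone are therefore uncertain. Without vehicle replicate 2 its own log2 fold change was -1.28 (unadjusted p = 0.00316, adjusted p = 0.949, edgeR's quasi-likelihood test), and without vehicle replicate 1 it was -0.51. Thoc7 shared 5.6% of its words, 3.9% with Gm11100 on the opposite strand. The shares were 1.8% for Ddx39b, 1.3% for Alyref, 0.2% for Thoc2 and 0 for Thoc3, Thoc5 and Nxf1. The paralogs of the helicase and the adapter were also close to 0, with log2 fold changes of -0.02 (SE 0.112) for Ddx39 and -0.06 (SE 0.300) for Alyref2.

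The partners are spread over 7 chromosomes of GRCm38. On the plus strand lie Thoc1 (chromosome 18, 9957906 to 9995489), Thoc5 (chromosome 11, 4895320 to 4928867), Sarnp (chromosome 10, 128817333 to 128877629), Ddx39b (chromosome 17, 35241746 to 35253707) and Nxf1 (chromosome 19, 8757073 to 8770922). On the minus strand lie Thoc2 (X chromosome, 41794991 to 41920674), Thoc3 (chromosome 13, 54458837 to 54468849), Thoc6 (chromosome 17, 23668614 to 23673882) and Alyref (chromosome 11, 120592121 to 120598365).

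Over the 9 partners, 0 passed the adjusted threshold of 0.1 and 0 had an unadjusted p under 0.05 in edgeR's quasi-likelihood test. Both counts were also 0 with DESeq2, with limma-voom and with edgeR's exact test. Over all 13741 genes tested, 0% passed the adjusted threshold and 2.2% had an unadjusted p under 0.05 (1.02% higher and 1.18% lower in BPA), so 0 of 9 is near that background. With DESeq2, 3 of these genes passed the adjusted threshold, against 2 with edgeR's exact test and 0 with limma-voom. Of the partners, 5 were fitted higher and 4 lower in BPA. Their median log2 fold change was 0.000359, beside 0.00157 over all genes tested. The groups did not overlap for 1 of the 9 (11.1%), beside 6.75% of all genes tested (3.19% higher and 3.56% lower in BPA).

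The 95% intervals bound the size of the partners' changes. All 9 intervals included no change, and all 9 ended below the lower bound of Thoc7. The highest upper bound was that of Thoc1, at 1.32-fold, against 1.42-fold for the lower bound of Thoc7. Since Thoc7 was chosen for its difference, the gap between its interval and theirs is a description and carries no p-value.

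**Figure D2:**
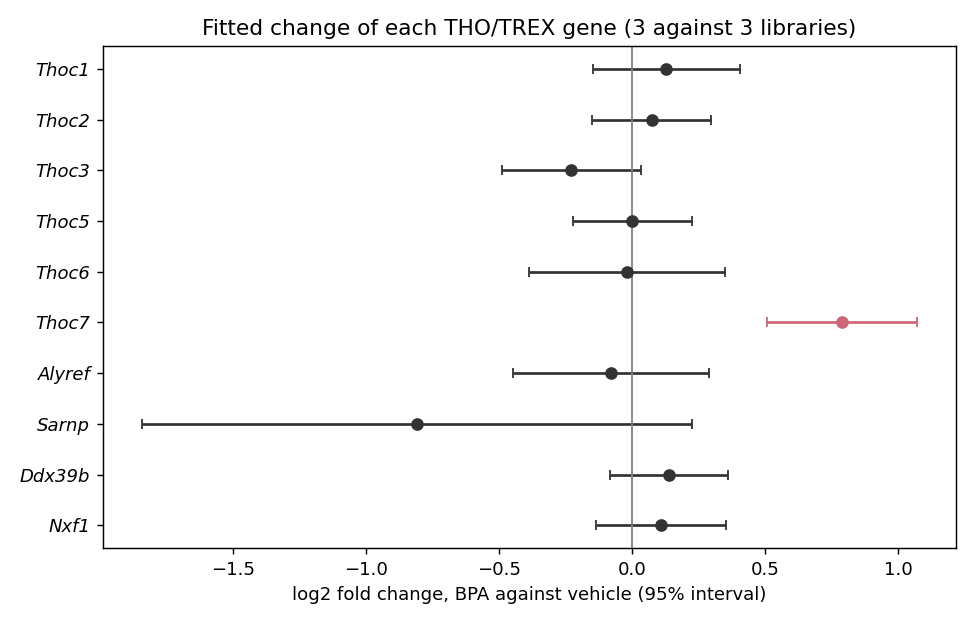
Fitted log2 fold change of BPA against vehicle (horizontal axis) for each of the 10 genes, with its 95% interval from edgeR's quasi-likelihood fit on 3 against 3 libraries. Thoc7 (red) is at 0.79 and the intervals of the 9 partners all include 0, with the widest for Sarnp.

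The proportion of Thoc7 within the THO core restates its own difference, which chose the complex, and is given as a description. Thoc7 made up 6.05%, 6.24% and 6.91% of the summed THO core CPM in vehicle, and 8.73%, 11.5% and 10.9% in BPA. Every BPA share exceeded every vehicle share. The summed CPM of the other 5 core genes was 345, 368 and 335 in vehicle and 378, 349 and 343 in BPA, where the groups overlapped. As a log2 ratio to the geometric mean of those 5 genes, Thoc7 averaged -1.25 (SD 0.1001) over the 3 vehicle libraries and -0.46 (SD 0.201) over the 3 BPA libraries. The difference of 0.79 does not depend on the scaling of libraries, because it is a ratio within each library.

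**Figure D3:**
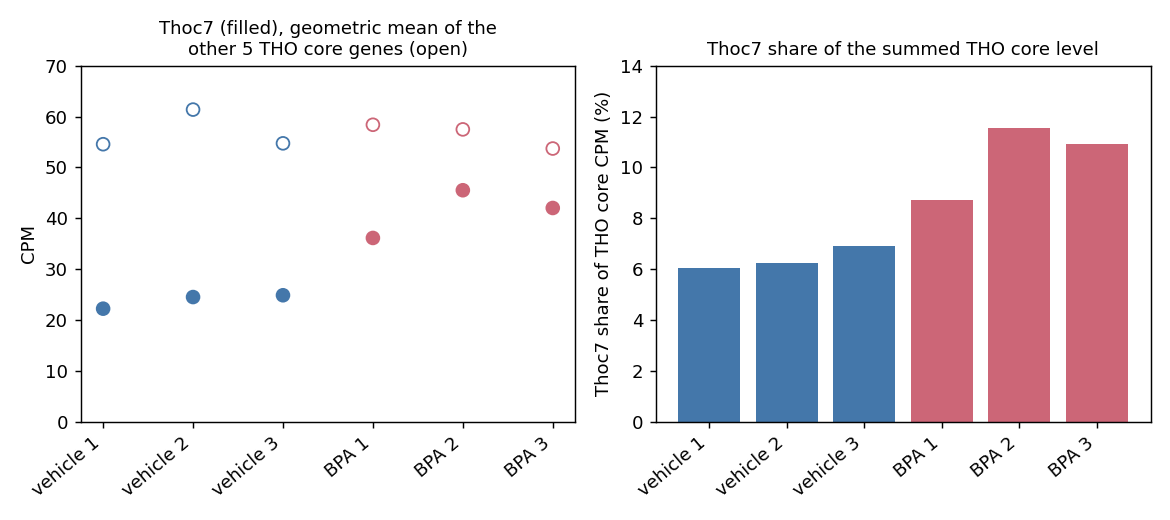
Left, CPM of Thoc7 (filled) and the geometric mean CPM of the other 5 THO core genes (open) in each library. Right, the share of the summed THO core CPM that came from Thoc7 (percent, axis from 0), between 6.05% and 6.91% in vehicle (blue) and between 8.73% and 11.5% in BPA (red).

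Thoc7 (ENSMUSG00000053453.9) lies on GRCm38 chromosome 14 from 13949012 to 13961852 on the minus strand. Its coding transcript has 8 exons and 937 bases, while a transcript annotated with a retained intron spans 5264 bases, and counts per gene cannot tell them apart. Its 3' end overlaps Gm11100 on the opposite strand, which had 1 to 4 counts per library. At the other end it overlaps Atxn7, the gene of the polyglutamine protein ataxin-7, on the opposite strand. The first exon of 1 Atxn7 transcript lies in the first intron of the Thoc7 transcript that starts farthest out, and no exons of the genes overlap. Atxn7 was at 36.6, 37.2 and 30.6 CPM in vehicle and 46.3, 38.0 and 40.0 CPM in BPA. The 3 BPA libraries were higher than the 3 vehicle libraries by a narrow margin, as was so for 3.19% of all genes tested. Of the genes beside other members, Mmp25, the nearest below Thoc6, was also higher without overlap. It had 9 to 20 counts per library and a log2 fold change of 0.56 (SE 0.325). The log2 fold change of Atxn7 was 0.25 (SE 0.129), which did not pass edgeR's quasi-likelihood test (unadjusted p = 0.0710, adjusted p = 1). Psmd6, the next protein-coding gene beyond Atxn7 and a proteasome subunit gene, had a log2 fold change of 0.04 (SE 0.132).

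The stretch between the inner of the 2 RefSeq starts of Thoc7 and the first exon of that Atxn7 transcript is printed below. It was chosen because it separates these divergent starts. That Atxn7 start is from the GENCODE annotation, and the RefSeq promoter window of Atxn7 lies elsewhere, at chr14:14012241-14012540. Whether the genes share a promoter was not tested. The word shared in the label below only marks that the stretch lies between an annotated start of each gene. The stretch covers chr14:13961314-13961439 of GRCm38.p6 from the RefSeq promoter sequences, and reads in the direction of Thoc7 with each CpG in capitals. It lies outside the exons of that Atxn7 transcript and of a Thoc7 transcript. Exons of their other transcripts were not compared with it.
Thoc7 and Atxn7 shared stretch: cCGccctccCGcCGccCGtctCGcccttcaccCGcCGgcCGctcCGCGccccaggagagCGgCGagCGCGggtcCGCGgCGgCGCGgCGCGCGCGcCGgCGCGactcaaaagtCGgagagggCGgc
This stretch of 126 bases holds 28 CpG and is 83.3% G or C. The second RefSeq start of Thoc7 lies farther out, beyond that Atxn7 exon, and the window around it holds 7 CpG, the median of all 32851 promoter windows. Windows run from 250 bases before to 50 bases after a start.

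Promoter windows were found for 8 of the 10 genes, in 10 windows. Because BPA binds estrogen receptors, they were searched on both strands for the palindromic estrogen response element and for its half-site GGTCA, which the full element contains. The full element was in 0 of the 10 windows and in 0.07% of all windows. The half-site was in 1 window, that of Thoc2, against 40.5% of all windows, and in neither window of Thoc7. A search for the ETS sequence CCGGAAGT, made after the sequences had been seen, matched Thoc5, Alyref and Ddx39b, and 3.89% of all windows. It matched no window of Thoc7, and none of Nxf1, Sarnp, Thoc2 or Thoc6 either. The windows of Thoc5, Alyref and Ddx39b hold 17, 54 and 31 CpG against a median of 7 over all windows. The share over all windows is therefore not matched for CpG. The 30 bases around 1 match of each of these 3 genes are shown, in the direction of the gene. The match (on either strand) is in capitals.
Thoc5, chr11:4895280-4895309: cttcgtgtctcACTTCCGGcctgtggctct
Alyref, chr11:120598384-120598413: agggggaggcgCCGGAAGTgacgccgcggc
Ddx39b, chr17:35241766-35241795: aggccggggcgagcctggaaCCGGAAGTga
A match is a sequence description and does not show binding.

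Levels of the 10 genes were compared with each other per length, as RPKM (CPM per kilobase of annotated exons), over all 6 libraries. Ddx39b was highest at 172 ± 17.8 RPKM (SD, n = 6), then Nxf1 at 64.7 ± 7.76 and Thoc5 at 32.1 ± 1.93. Alyref (14.8 ± 3.18), Thoc3 (13.5 ± 1.43), Thoc2 (11.2 ± 0.933) and Thoc6 (10.7 ± 1.84) formed a middle range, followed by Thoc1 at 7.31 ± 0.885, Thoc7 at 4.96 ± 1.53 and Sarnp at 1.89 ± 1.21. Neighbors in this order were compared by an exact two-sided sign-flip permutation test over the 6 libraries, where the smallest possible p is 0.0312. Of the 9 neighboring pairs, 7 reached that p (adjusted p = 0.0402), each with the same order in all 6 libraries. The test takes the length of each gene as given, so it does not cover a change of length. The order itself was taken from the same 6 libraries. Alyref and Thoc3 did not differ beyond their spread (exact p = 0.500), nor did Thoc2 and Thoc6 (exact p = 0.562).

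The rank of Thoc7 depended on the length used. Its annotated exons sum to 6561 bases because of the retained intron. With the 937 bases of its coding transcript its level was 34.7 RPKM, the fourth highest instead of the ninth. Other pairs changed order as well. By coding length Alyref stood above Thoc5, at 74.3 against 44.8 RPKM. Thoc1 stood above Thoc6 under each of the other lengths, for example 15.8 against 14.4 RPKM by coding transcript. Ddx39b, Nxf1 and Sarnp kept the first, second and last places under every length tried. The last place of Sarnp rests on its own row alone, whose counts are uncertain. Gm6563, which shares words with it, averaged 40.3 CPM against 2.57 CPM for Sarnp.

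The other genes of the pathway were taken from lists of the export machinery, 87 genes in all with the members. Of these, 82 were tested besides Thoc7. The 4 that were not are Nxf2, Nxf3 and Nxf7, each with at most 1 count in any library, and Srsf1, which is listed at 0 throughout. In edgeR's quasi-likelihood test 0 of the 82 passed the adjusted threshold and 0 had an unadjusted p under 0.05, beside 2.2% of all genes tested. With DESeq2, limma-voom and edgeR's exact test the count at an unadjusted p under 0.05 was also 0. Without the 2 libraries in which Ttr was high it was 6, namely Sarnp lower and Nup98, Leng8, Pnn, Zfc3h1 and Pabpn1 higher. In that fit 954 of all 13643 genes tested had such a p, so the share of all genes was larger as well. With all 6 libraries, 43 of the 82 were fitted higher and 39 lower in BPA, and the median log2 fold change was 0.000920. The groups did not overlap for 2 of the 82, beside 6.75% of all genes tested. Both, Thoc3 and Rnaseh2b, were lower, beside 3.56% of all genes, and 0 were higher, beside 3.19%.

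The log2 fold changes of the 73 list genes that are not members ran from -0.27 to 0.38. Thoc7, at 0.79, lay outside that range, which is a description because it was chosen for its difference. Among the members, Sarnp was at -0.81, farther from 0 than Thoc7. The highest of the 73 was Erh, from the list of TREX helicases and adapters, with 4 to 13 counts per library and a standard error of 0.422. Among the 15 genes of the export receptor and the pore, 10 were fitted higher and 5 lower. Nup153, a nuclear basket protein that docks export complexes, went from 139 CPM ± 14.3 (SD, n = 3) to 159 CPM ± 6.13 (SD, n = 3), a log2 fold change of 0.20 (SE 0.102). Nup98 was at 0.17 (SE 0.123) on the same scale. Nxt1, the partner of NXF1, was at 12.2 CPM ± 0.567 and 11.6 CPM ± 1.31 (SD, n = 3).

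TREX-2, which tethers active genes to the pore, had 7 genes tested, 6 fitted higher and 1 lower. The lower one was Shfm1, at -0.20 (SE 0.133), and Cetn3 was at 0.15 (SE 0.109). The 11 genes of the exon junction complex, the splicing mark that recruits TREX, ranged from -0.14 for Magoh (SE 0.135) to 0.11, and Rbm8a, whose protein pairs with MAGOH, was at -0.11 (SE 0.126). Of the 5 cap-binding complex genes, Ncbp1 was at -0.08 (SE 0.0924) and Ncbp3, listed under the older name 1200014J11Rik, at -0.12 (SE 0.111). The SR adapters Srsf7 and Srsf3 were at 0.09 (SE 0.0980) and -0.01 (SE 0.0944).

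The last groups stand at the edges of the pathway. Ythdc1, the nuclear reader of the m6A mark, was at 0.17 (SE 0.110) and the methylation cofactor gene Wtap at 0.13 (SE 0.110), among 4 higher and 5 lower of the 9 in that list. Of the 7 genes that limit R-loops, 4 were fitted higher and 3 lower, and Top1 was at -0.11 (SE 0.104). Among the 7 nuclear RNA decay genes, 3 were higher and 4 lower, and Exosc3, an exosome subunit, was at -0.27 (SE 0.176) and Zfc3h1 at 0.15 (SE 0.133). The tRNA exporter gene Xpot was at 0.12 (SE 0.116) and the protein exporter gene Xpo1 at 0.04 (SE 0.101). None of the genes named from these lists had an unadjusted p under 0.05.

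**Figure D4:**
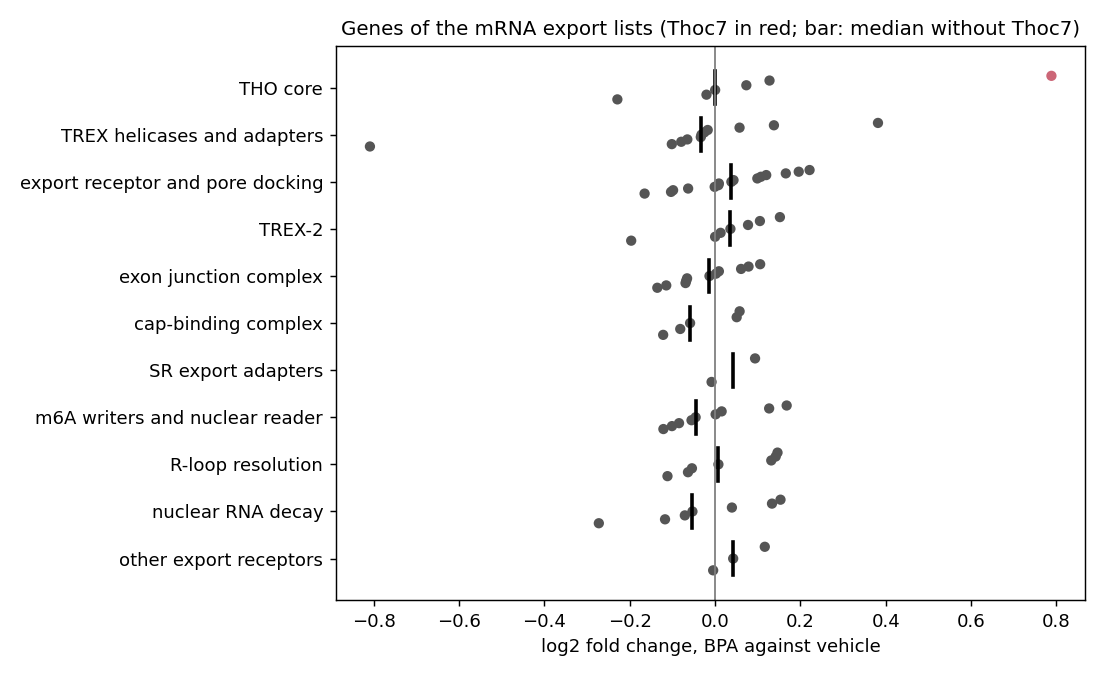
Fitted log2 fold change of BPA against vehicle (horizontal axis) for each tested gene of the 11 export lists (1 row each), with the median of each list without Thoc7 as a black bar. Thoc7 (red) stands at 0.79, Sarnp at -0.81 from 4 to 30 counts per library, and the other genes between -0.27 and 0.38.

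The genes whose pattern was most like Thoc7 were ranked by Pearson correlation of log2 CPM over the 6 libraries, among 10009 genes averaging at least 10 CPM. These were NCBP2-AS2 (r = 0.981), A830080D01Rik (0.974), Dact1 (0.973), Serinc2 (0.964) and Jkamp (0.963). Their log2 fold changes ran from 0.12 for Dact1 to 0.30 for A830080D01Rik, all smaller than that of Thoc7. Over 6 libraries and so many genes such values are a description only. The partners ranged from 0.471 for Ddx39b to -0.898 for Thoc3 on the same measure, and 1200 of the 10009 genes were more like Thoc7 than Ddx39b was.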

How the data were processed

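The authors deposited raw read counts per gene symbol for 6 libraries. According to the study's methods and the submitters' processing notes, a strand-specific kit was used on total RNA, 50-base single-end reads were mapped to GRCm38 by TopHat2 2.0.14, and reads were counted by featureCounts on GENCODE models. StringTie 1.2.4 and edgeR 3.14.2 are also named. Strand and multi-mapping options are not given in the sources used here.

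Groups came from the labels, and replicates were numbered in accession order. In R 4.3.3, filterByExpr of edgeR 4.0.16 selected genes (minimum count 10, minimum total 15), TMM set the scaling, and the groups were compared by the quasi-likelihood test of edgeR with no covariate. P-values were adjusted by Benjamini-Hochberg over 13741 genes, with a threshold of 0.1. Standard errors and 95% intervals follow from that statistic. Log2 CPM used a prior count of 2. DESeq2 1.42.0, limma-voom (limma 3.58.1), other scalings and filters and omission of each library were alternatives. Annotation was GENCODE M21, and shared words were exact 50-base matches between transcripts. The test was tried on simulated counts. The members and lists were chosen with earlier results of these data known, and the sequences are from RefSeq (GRCm38.p6). Genes were named by rule: the members, the 2 genes with the smallest p in each export list, neighboring or overlapping genes, copies that share words, the 5 genes most like Thoc7, and Ttr and Nkx2-1. Other marker genes are named only as members of their list, and 4 genes only as not tested. Erh, Nxt1, Ddx39, Rnaseh2b, Leng8, Pnn and Pabpn1 fall outside it and were chosen after their values were seen. Some genes of the lists are not reported here by name.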

Additional observations from a re-analysis of the deposited data

How the results depend on the processing

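The log2 fold change of Thoc7 lay between 0.70 and 0.88 over 15 alternatives, and the count of partners past the adjusted threshold stayed at 0 in all 15. Their median log2 fold change ran from -0.04 to 0.07. The adjusted p of Thoc7, 0.251, was 0.0148 with DESeq2, 0.000598 with edgeR's exact test and 0.000288 with no filter, and from 0.18 to 0.875 when 1 library was left out. Its rank by p, 1 in the main fit, was 2 with DESeq2 and the exact test and 6 with no filter. It was from 1 to 5 when 1 library was left out and 18 without the 2 libraries high in Ttr. The cause was not tested.

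Pathway genes at an unadjusted p under 0.05, 0 of 82, numbered 1 with no filter (Sarnp, lower), from 0 to 5 when 1 library was left out, and 6 without the 2 libraries high in Ttr, an alternative chosen after seeing the data. The count of 5 came without vehicle replicate 2 (Sarnp lower, Nxf1, Nup98, Leng8 and Pnn higher). It was 3 without BPA replicate 2 (Alyref lower, Ythdc1 and Pabpn1 higher) and 2 without vehicle replicate 1. The count over all genes tested moved too, from 302 of 13741 in the main fit. It was 708 of 13886 without vehicle replicate 2, 563 of 14010 without BPA replicate 2 and 346 of 13925 without vehicle replicate 1. With no filter it was 620 of 23501, and without the libraries high in Ttr 954 of 13643. The cause was not tested.

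Partners near 0 changed sign, never past the threshold. Thoc5 was at -0.000345 with RLE scaling, -0.00268 with upper-quartile scaling and -0.00202 with no filter, and from -0.0400 to 0.0578 when 1 library was left out. On leaving out 1 library Thoc1 ran from -0.00898 to 0.252, Thoc2 from -0.00645 to 0.137, Thoc6 from -0.182 to 0.172 and Alyref from -0.358 to 0.0608. Thoc6 was at 0.0173 without the libraries high in Ttr. Sarnp, at -0.81, moved by over 1.5 times to -1.28 without vehicle replicate 2 and to -0.53 with limma-voom. Without vehicle replicate 1 it moved to -0.51, and without vehicle replicate 3 to -0.52. Sarnp could not be tested at a minimum of 10 CPM. The sum of Sarnp and Gm6563, in which Gm6563 had most of the counts, was at -0.02. Thoc7 relative to the other core genes ran from 0.73 to 0.91. The order of levels kept 6 to 9 of its 9 pairs. No paired analysis was possible because the labels give no replicate numbers that groups share.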
